A study of Mus musculus with 6 samples.

Results

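The 10 genes Nfkb1, Nfkb2, Rel, Relb, Nfkbia, Nfkbie, Nfkbiz, Tnfaip3, Birc3 and Icam1 encode NF-kB subunits, inhibitors that NF-kB itself induces, and classical NF-kB target proteins. They were chosen by symbol, and 10 of 10 were found among the 55401 genes of the deposited read count table. Articular cartilage was taken from the knees of mice aged 10 weeks for RNA sequencing, with 3 libraries labelled adseverin knockout (cKO) and 3 labelled wild type (WT). Adseverin, encoded by Scin, severs and caps actin filaments. Mice of both groups were given tamoxifen at 1.5 mg per 10 g body weight on 5 consecutive days, starting at 8 weeks of age. Both groups had thus been exposed to the drug. The sources used here do not give the promoter that drives the recombinase, the deleted exons, the strain, or whether WT mice carried the recombinase or the floxed allele. Since the labels do not tie each library to its own mouse, the p-values reflect the variation among these libraries, some of which may be technical.

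NF-kB is a family of dimeric transcription factors built from the products of Rela, Rel, Relb, Nfkb1 and Nfkb2. In resting cells IkB proteins hold the dimers in the cytoplasm. Signals from TNF, IL-1 or Toll-like receptors activate the IkB kinase complex, IkB is degraded, and the dimers enter the nucleus, where they induce, among others, the genes for their own inhibitors. In a slower branch of the pathway the Nfkb2 product is processed and acts together with RelB. In articular cartilage, NF-kB is known as the pathway through which inflammatory cytokines raise matrix proteases.

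The inhibitor and subunit genes are themselves known to be induced by NF-kB, so the promoters in which the kappa B consensus motif was found are shown. The motif is 10 bases long and was searched by its consensus on both strands, so that overlapping matches count separately, in windows from 250 bases before to 50 bases after each RefSeq transcript start (build GRCm38.p6). Promoter windows were present for 7 of the 10 genes, and 5 of these 7 (Nfkb2, Rel, Nfkbia, Nfkbie and Tnfaip3) held a match. Over all 27025 genes with a window, 9.55% held one, and 8.46% of all 32851 windows did. The 150 bases before the start are given here on the strand of the gene, 5′ to 3′, with the motif in capitals. They lie at chr19:46304587-46304736 for the most upstream of 3 Nfkb2 starts, chr11:23770970-23771119 for Rel, chr12:55492648-55492797 for Nfkbia, chr17:45555550-45555699 for Nfkbie and chr10:19015411-19015560 for the more upstream of 2 Tnfaip3 starts.
Nfkb2: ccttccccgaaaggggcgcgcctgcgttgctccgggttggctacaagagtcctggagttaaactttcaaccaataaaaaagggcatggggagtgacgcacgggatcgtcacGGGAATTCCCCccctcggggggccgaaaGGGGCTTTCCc
Rel: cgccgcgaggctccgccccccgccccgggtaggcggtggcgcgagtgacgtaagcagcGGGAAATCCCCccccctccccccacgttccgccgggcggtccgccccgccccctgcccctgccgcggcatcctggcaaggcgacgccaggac
Nfkbia: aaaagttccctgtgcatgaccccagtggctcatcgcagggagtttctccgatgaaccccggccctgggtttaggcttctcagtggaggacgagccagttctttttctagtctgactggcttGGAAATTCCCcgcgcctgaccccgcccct
Nfkbie: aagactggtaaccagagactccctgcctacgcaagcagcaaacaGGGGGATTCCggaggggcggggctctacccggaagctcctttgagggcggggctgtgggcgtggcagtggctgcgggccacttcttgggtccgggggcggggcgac
Tnfaip3: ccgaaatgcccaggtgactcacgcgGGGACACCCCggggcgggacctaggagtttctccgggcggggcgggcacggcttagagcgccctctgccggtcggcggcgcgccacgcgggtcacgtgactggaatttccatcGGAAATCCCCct

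The matches began 39, 38 and 11 bases before this start of Nfkb2, 92 and 91 bases before that of Rel, 29 before that of Nfkbia, 106 before that of Nfkbie and 125 and 12 before that of Tnfaip3. A match describes the letters and is not evidence of binding in these samples. In the windows of Birc3 and Icam1 these letters were not found.

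Library totals ran from 22664828 to 31014996 reads. Scin stood at 39.1, 29.9 and 29.4 CPM in the cKO libraries, against 186, 185 and 219 CPM in the WT libraries, so all 6 libraries matched their labels; CPM are TMM-normalised reads scaled to library size. It fell to 16.6% of the WT level (log2 fold change -2.59 ± 0.14 SE; adjusted p = 6.59e-04 by the quasi-likelihood test of edgeR). Chondrocyte genes were present, and all 12 listed ones had reads. Col2a1 was at 17598 ± 2603 CPM in cKO and 14841 ± 429 CPM in WT (SD, n = 3 each). Comp was at 6533 ± 569 CPM in cKO and 5991 ± 357 CPM in WT (SD, n = 3 each). Matn1 and Matn3 of the same list were low, at 3.32 and 5.96 CPM in cKO and 2.34 and 3.78 CPM in WT. Genes of other cells were present too. The osteoblast and osteocyte markers summed to 38458 to 39952 CPM in cKO and 32847 to 39364 CPM in WT. The chondrocyte markers summed to 35516 to 40718 CPM in cKO and 32749 to 34003 CPM in WT. Most of the osteoblast and osteocyte sum came from Ibsp, a gene of bone matrix and hypertrophic chondrocytes. Ibsp averaged 27838 CPM in cKO and 24417 CPM in WT. Col1a1, which is in the fibroblast list as well, averaged 7257 CPM in cKO and 7655 CPM in WT. The sums are not divided by gene length, so they do not give the share of RNA from each cell type. Ngp, a neutrophil granule gene, averaged 604 CPM in cKO and 457 CPM in WT. The RNA is thus not from chondrocytes alone, and in such bulk samples fewer cells of a type and less RNA per cell cannot be told apart.

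The comparison asked whether these genes differed in cartilage after adseverin deletion. None of the 10 passed the threshold in either direction; all 10 had enough reads to be tested. Over all 16260 genes tested, 1 passed at an edgeR adjusted p under 0.05, which is 0.00615%, and that gene was Scin. At an unadjusted p under 0.05 there was 1 of the 10, Icam1, against 6.5% of all genes, and DESeq2 gave the same pair of counts, 0 and 1. With WT 3 left out there were 3 at an unadjusted edgeR p under 0.05 (Nfkb2, Nfkbie and Icam1), and with WT 2, cKO 1 or cKO 3 left out there were 0. Of the 10 genes, 7 had a log2 fold change below 0, against 49.4% of all genes, with a median of -0.29 beside 0.0037 over all genes; the median of the 10 was -0.17 without WT 2. Groups did not overlap for 2 of the 10, Icam1 and Nfkbie, both lower in cKO, where 5.89% of all genes tested were lower without overlap. The members had 57 to 4321 reads per library.

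**Figure D1:**
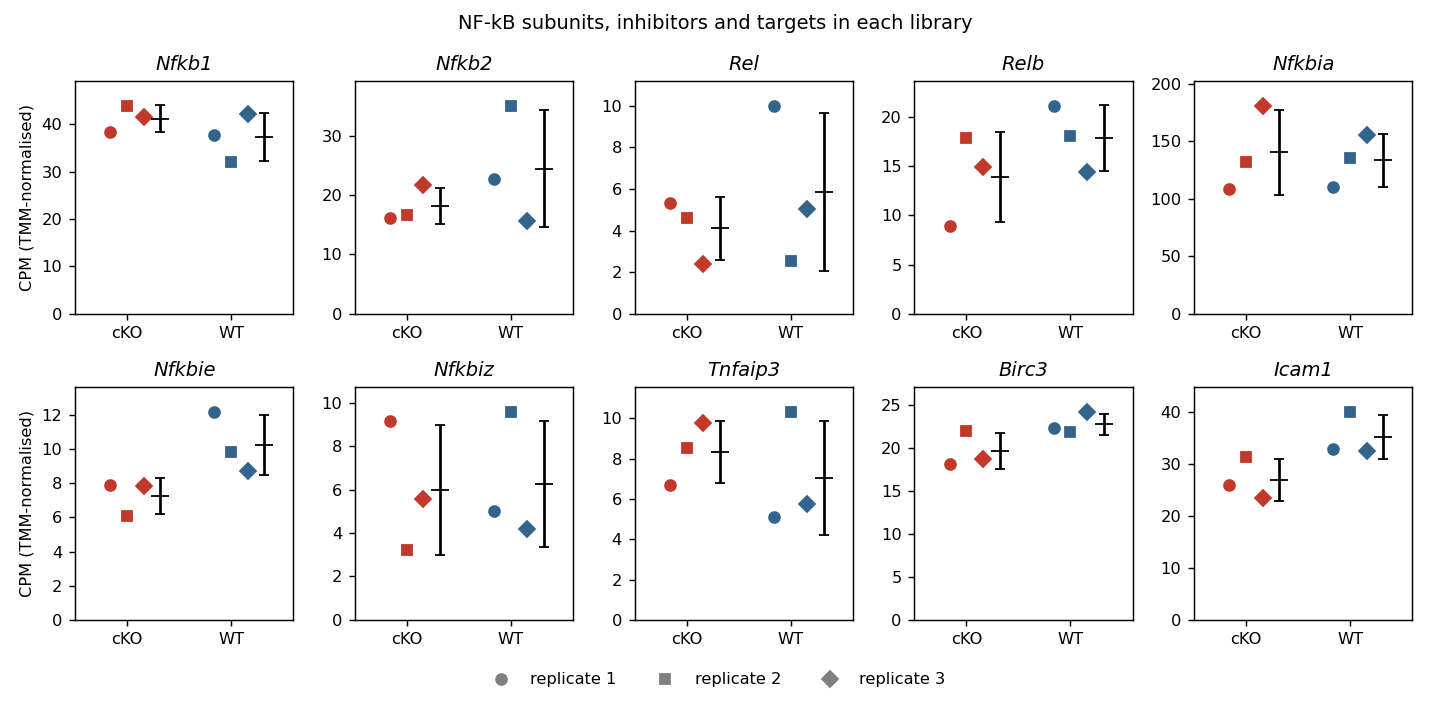
CPM (TMM-normalised, linear axes from 0) of the 10 genes, with 1 point per library, red for cKO and blue for WT, and the group mean ± SD in black beside the points. The cKO points of Icam1 and Nfkbie lie below all WT points, while the other 8 genes overlap between the groups.

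Among the subunits, Nfkb1 (ENSMUSG00000028163, GRCm38 chromosome 3, 135584655 to 135691547) encodes a precursor that is processed to a DNA-binding subunit of the most common NF-kB dimer. It measured 38.4, 43.9 and 41.5 CPM in the cKO libraries and 37.9, 32.0 and 42.2 CPM in the WT libraries. The groups overlapped, with WT 2 lowest. The difference was 0.14 ± 0.13 on the log2 scale (edgeR adjusted p = 0.909), with a 95% interval of -0.16 to 0.45; it was 0.036 without WT 2 and 0.24 without WT 3.

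Nfkb2 (ENSMUSG00000025225, chromosome 19, 46304320 to 46312385), the precursor of the slower branch, measured 16.2, 16.6 and 21.6 CPM in cKO and 22.7, 35.01 and 15.7 CPM in WT. WT 2 was highest and WT 3 lowest of all 6 libraries, so the WT values enclosed those of cKO. The log2 fold change of -0.43 ± 0.28 (edgeR adjusted p = 0.861) was -0.090 with WT 2 left out and -0.67 with WT 3 left out. In the annotation, 299 exon bases of Nfkb2 are shared with Psd and 531 with a non-coding RNA on the opposite strand. The sources used here do not state the strand setting of the counting. The reads counted for those genes were 22 to 60 and 34 to 124 per library, beside at least 365 for Nfkb2.

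Relb (ENSMUSG00000002983, chromosome 7, 19606217 to 19629438), the partner of processed Nfkb2, measured 8.94, 17.9 and 14.9 CPM in cKO and 21.1, 18.1 and 14.4 CPM in WT. The groups overlapped, with cKO 1 lowest and WT 1 highest, at a log2 fold change of -0.36 ± 0.27 (edgeR adjusted p = 0.884). It was -0.12 without cKO 1, -0.22 without WT 1 and -0.58 without cKO 2.

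Rel (ENSMUSG00000020275, chromosome 11, 23736847 to 23770970) encodes c-Rel, a subunit best known from lymphoid and myeloid cells. Its values were 5.31, 4.61 and 2.39 CPM in cKO and 10.0, 2.54 and 5.02 CPM in WT, a 3.93-fold range among the WT libraries and 2.23-fold among the cKO libraries. WT 1 was highest, while cKO 3 and WT 2 were both low. The log2 fold change of -0.51 ± 0.51 (edgeR adjusted p = 0.916) turned to 0.11 with WT 1 left out and was -0.24 without cKO 3 and -0.88 without WT 2, and its 95% interval ran from -1.69 to 0.66.

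The fold changes of the inhibitors differed in direction, and differences between these genes were not tested. Nfkbia (ENSMUSG00000021025, chromosome 12, 55489410 to 55492647) encodes IkB-alpha, the inhibitor that is degraded and then resynthesised under NF-kB. It measured 109, 132 and 181 CPM in cKO and 110, 135 and 156 CPM in WT. The cKO range enclosed all 3 WT values. Their difference on the log2 scale was 0.07 ± 0.19 (edgeR adjusted p = 0.979), with a 95% interval of -0.37 to 0.51 that holds changes to between 77.1% and 143% of the WT level. The difference turned to -0.15 without cKO 3 and to -0.058 without WT 1.

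Nfkbie (ENSMUSG00000023947, chromosome 17, 45555703 to 45563169) encodes IkB-epsilon, a slower inducible inhibitor of the same class. It measured 7.88, 6.06 and 7.83 CPM in the cKO libraries, against 12.2, 9.83 and 8.74 CPM in the WT libraries. All 3 cKO values lay below the lowest WT value, and WT 1 was highest. Its log2 fold change of -0.50 ± 0.23 corresponds to 70.7% of the WT level, with an edgeR adjusted p of 0.783 (unadjusted p = 0.0579, 95% interval -1.02 to 0.021).

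Nfkbiz (ENSMUSG00000035356, chromosome 16, 55811375 to 55838899) encodes the nuclear IkB-zeta, a cofactor that is itself induced by IL-1 and Toll-like receptor signals. It measured 9.16, 3.23 and 5.57 CPM in cKO and 5.02, 9.56 and 4.18 CPM in WT. The spread within cKO was 2.84-fold and within WT 2.29-fold, larger than the difference of the means (log2 fold change -0.06 ± 0.45, edgeR adjusted p = 0.992). The direction turned without WT 2 (0.37) and without cKO 2 (0.24).

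Tnfaip3 (ENSMUSG00000019850, chromosome 10, 19000910 to 19015657) encodes a ubiquitin-editing enzyme that switches off signalling upstream of the IkB kinase. It measured 6.69, 8.53 and 9.75 CPM in cKO and 5.09, 10.3 and 5.74 CPM in WT. WT 2 was the highest library and the other two WT libraries were the lowest. The log2 fold change of 0.24 ± 0.32 (edgeR adjusted p = 0.939) was 0.61 without WT 2 and 0.051 without WT 1.

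Birc3 (ENSMUSG00000032000, chromosome 9, 7848699 to 7873186) encodes a ubiquitin ligase of the inhibitor of apoptosis family that works at the TNF receptor complex. It measured 18.1, 22.1 and 18.8 CPM in cKO and 22.3, 21.9 and 24.2 CPM in WT. In cKO, only cKO 2 reached into the WT range, just above WT 2. This gave a log2 fold change of -0.21 ± 0.14 (edgeR adjusted p = 0.861).

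Icam1 (ENSMUSG00000037405, chromosome 9, 21015985 to 21028817) encodes an adhesion protein to which leukocyte integrins bind, carried by endothelium, leukocytes and cytokine-stimulated mesenchymal cells. It measured 26.0, 31.3 and 23.4 CPM in the cKO libraries, against 32.8, 40.0 and 32.5 CPM in the WT libraries. The highest cKO value, in cKO 2, lay just under the lowest WT value. On the log2 scale the difference was -0.38 ± 0.15, which is 76.7% of the WT level, with a 95% interval from 60.0% to 98.1% for this gene alone. The unadjusted p was 0.0374 and the edgeR adjusted p over all genes 0.726, so the difference did not pass; DESeq2 gave an adjusted p of 0.535. An antisense gene shares 511 exon bases with Icam1 and had at most 8 reads in a library.

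**Figure D2:**
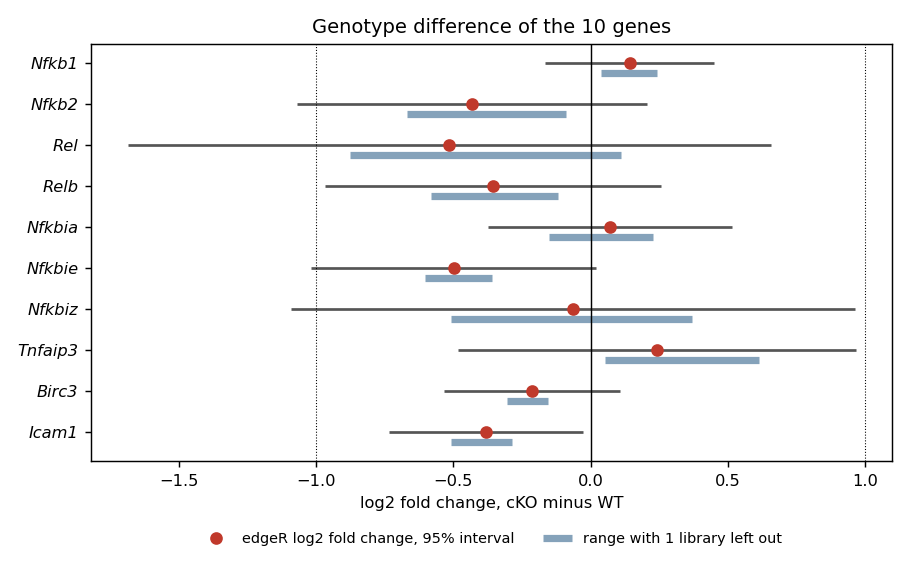
Log2 fold change (cKO minus WT) of each gene by edgeR, with its 95% interval as a grey line and the range over the 6 fits that leave out 1 library as a blue bar; dotted lines mark 2-fold changes. The intervals of 6 genes lie within the dotted lines, and the blue bars of Rel, Nfkbia and Nfkbiz cross 0.

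The 95% intervals show what these libraries can tell. For 6 of the 10 genes (Nfkb1, Relb, Nfkbia, Tnfaip3, Birc3 and Icam1) the interval lay within a 2-fold change in either direction. For Nfkb2, Rel, Nfkbie and Nfkbiz a fall by more than 2-fold was still inside it: the lower ends were 47.6%, 31.0%, 49.3% and 46.9% of WT. The intervals are per gene and are not adjusted for the number of genes.

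The libraries did not rank the 10 genes in one order. WT 2 was the highest library for 4 genes (Nfkb2, Nfkbiz, Tnfaip3 and Icam1) and the lowest for Nfkb1. WT 1 was the highest for Rel, Relb and Nfkbie and the lowest for Tnfaip3. WT 3 was highest for Birc3 and lowest for Nfkb2. Among the cKO libraries, cKO 1 was the highest for none of the genes and the lowest for 3 (Relb, Nfkbia and Birc3), cKO 2 was highest for Nfkb1 and lowest for Nfkbie and Nfkbiz, and cKO 3 was highest for Nfkbia and lowest for Rel and Icam1.

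**Figure D3:**
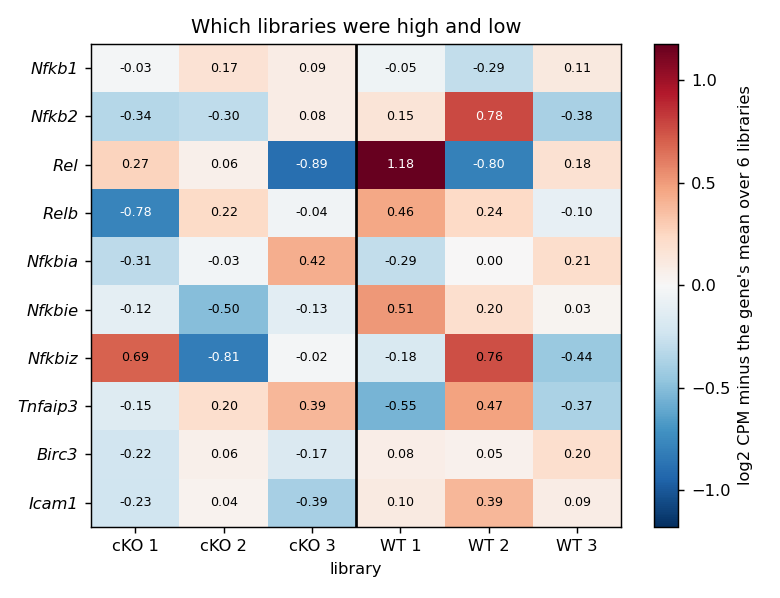
Log2 CPM of each gene in each library minus the mean of that gene over the 6 libraries, cKO libraries left of the line and WT libraries right of it, red for high and blue for low. Rel reaches 1.18 in WT 1 and -0.89 in cKO 3, and no library is red or blue for all genes.

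Levels were compared between genes as TPM, which divides reads by the summed length of all annotated exons (1610 to 12061 bases) and scales each library to the same total. The order of the genes depends on that length, which can exceed the length of a single transcript. Nfkbia was the most abundant, at 266 ± 71.2 TPM in cKO and 255 ± 38.4 TPM in WT (SD, n = 3 each), and its lowest library lay above the highest library of every other gene. Icam1 came next at 18.8 ± 2.64 TPM in cKO and 24.8 ± 2.71 TPM in WT, above Nfkb2 in all 6 libraries although the ranges of the pair over all libraries overlapped. Nfkb2, Birc3, Relb, Nfkb1 and Nfkbie followed, with means over all libraries of 14.2, 13.0, 12.6, 9.98 and 8.83 TPM, and each overlapped the next. The lowest 3 were Nfkbiz, Tnfaip3 and Rel at 3.74, 3.25 and 2.06 TPM, again with overlapping ranges, and all of their values lay below the lowest value of Nfkbie.

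**Figure D4:**
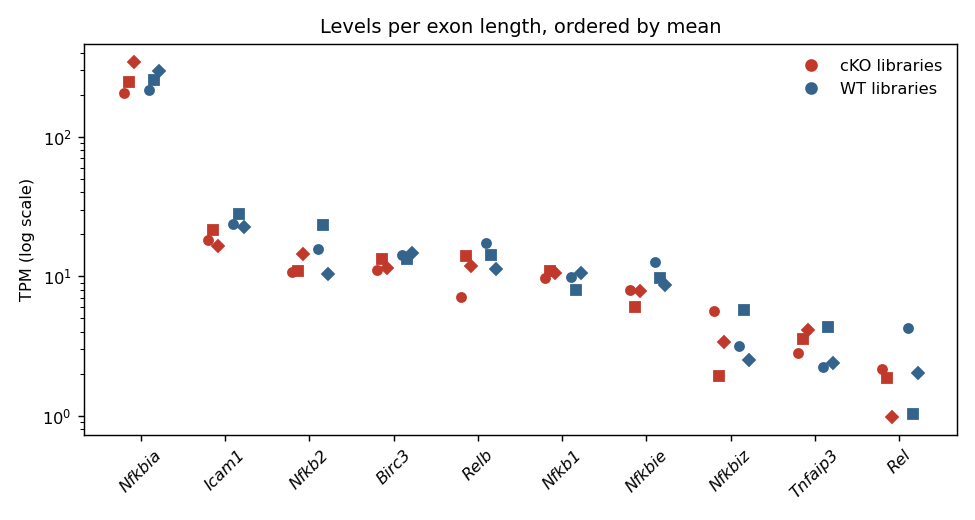
TPM on a log axis for each library, red for cKO and blue for WT, circles, squares and diamonds for replicates 1, 2 and 3, with genes ordered by their mean. Nfkbia stands above 206 TPM in every library, and the other 9 genes lie between 0.981 and 27.8 TPM.

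Among the 5 subunit genes, Rela, which is not one of the 10, made up most of the TPM, 72.3 ± 3.06% in cKO and 72.5 ± 2.31% in WT (SD, n = 3 each). The length used was 12061 bases for Nfkb1, 3072 for Rela and 4584 for Nfkb2, so these shares and the ratios below depend on it. In CPM, which has no such division, Nfkb1 averaged 41.3 in cKO and 37.4 in WT, and Nfkb2 18.1 in cKO and 24.5 in WT. Nfkb1 made up 8.03%, 8.13% and 8.54% in the cKO libraries, against 5.63%, 5.22% and 7.96% in the WT libraries. The cKO shares lay above the WT shares, by a small step from WT 3 to cKO 1. A share depends on the other subunits too: in CPM Nfkb1 overlapped between the groups, and Rela was lower in cKO without overlap. With 3 libraries a group, the smallest p that an exact permutation test allows is 0.1, and none was run. Nfkb2 held 9.56 ± 1.92% in cKO and 10.6 ± 3.90% in WT, Relb 8.55 ± 2.40% in cKO and 9.11 ± 0.672% in WT, and Rel 1.32 ± 0.503% in cKO and 1.53 ± 0.865% in WT; each of these overlapped. Within a library, the Nfkb1 level was 0.903, 1.01 and 0.729 times that of Nfkb2 in cKO, against 0.634, 0.347 and 1.02 times in WT. The Nfkbia level was 26.0, 41.1 and 43.7 times that of Nfkbie in cKO and 17.1, 26.0 and 33.8 times in WT. Both sets of ratios overlapped between the groups.

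Genes on either side of the 10 in the pathway were read from 6 lists, 109 genes in all, of which 95 had enough reads to be tested. None passed the threshold in either direction by edgeR, while DESeq2 called 1, Tnfrsf1a. Over all genes, DESeq2 called 91 of the 16906 it tested. At an unadjusted edgeR p under 0.05 there were 9, 3 higher and 6 lower, against 3.54% of all genes higher and 2.96% lower. Groups did not overlap for 4 of the 95 that were higher and 6 that were lower in cKO. Over all genes tested, 6.41% were higher and 5.89% lower without overlap. Their median log2 fold change was -0.038. The values that follow are of genes taken by smallest p.

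In the same family, the 4 other NF-kB proteins (Rela, Nfkbib, Nfkbid and Bcl3) all had log2 fold changes below 0, with a median of -0.67. That median ran from -0.79 without WT 2 to -0.41 without WT 1. Rela, the main transactivating subunit, measured 92.0, 99.3 and 85.8 CPM in cKO, against 126, 109 and 100 CPM in WT, and Bcl3, a nuclear IkB protein, 5.67, 4.15 and 4.39 CPM in cKO, against 15.7, 6.41 and 8.32 CPM in WT. For both, all cKO libraries lay below all WT libraries. The log2 fold changes were -0.27 ± 0.11 for Rela (edgeR adjusted p = 0.716) and -1.10 ± 0.35 for Bcl3 (edgeR adjusted p = 0.683).

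Of 15 receptors, 12 were below 0 (median -0.20). With single libraries left out, this median ran from -0.27 (WT 3) to -0.094 (cKO 2). It was -0.099 without WT 1 and -0.12 without WT 2. Tnfrsf1a, the widely expressed TNF receptor, measured 69.5, 52.2 and 58.7 CPM in cKO, against 89.7, 79.7 and 93.8 CPM in WT, with no overlap. Its log2 fold change was -0.55 ± 0.13 (edgeR adjusted p = 0.596, limma-voom 0.492 and DESeq2 0.0254), so that it passed by DESeq2 and not by edgeR or limma-voom. The log2 fold change of Cd14, a co-receptor for Toll-like receptor ligands, was -0.29 ± 0.15. Of 10 ligand genes 8 were tested (2 above and 6 below 0, median -0.16). That median turned to 0.029 without WT 2 and to 0.16 without cKO 2, and was -0.52 without cKO 3. Tnfsf13b, which encodes the B cell survival factor BAFF, was at 5.47 ± 0.637 CPM in cKO and 2.78 ± 0.949 CPM in WT, and Tnfsf12 was at -0.39 ± 0.32 on the log2 scale. The ligand genes that were not tested were Tnf, with 0, 0 and 3 reads in the cKO libraries and 0, 6 and 0 in the WT libraries, and Lta, with at most 5 reads in a library.

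Of 28 kinases and adaptors, 17 were above and 11 below 0 (median 0.042), and the median was -0.029 without WT 3, 0.068 without WT 1, 0.011 without cKO 1 and 0.024 without cKO 3. Myd88, the adaptor of IL-1 and Toll-like receptors, was at 41.2 ± 6.37 CPM in cKO and 52.9 ± 2.33 CPM in WT, without overlap. Tab3 measured 2.21, 10.9 and 12.4 CPM in cKO and 2.70, 3.51 and 4.37 CPM in WT. Its groups overlapped, with cKO 1 the lowest library, at a log2 fold change of 1.27 ± 0.56. Of 18 further negative regulators, 7 were above and 11 below 0 (median -0.023, and 0.0012 without cKO 2). Zfp36, which binds and destabilises cytokine mRNAs, was at -0.42 ± 0.28, and Tnip3 had 21, 14 and 15 reads in cKO and 0, 0 and 6 reads in WT.

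Of 34 further genes widely described as NF-kB targets, 22 were tested, 7 above and 15 below 0. Their median of -0.089 was -0.26 without WT 2, -0.23 without cKO 3 and -0.064 without WT 1. Bcl2l1, a survival gene, was at 318 ± 33.4 CPM in cKO and 257 ± 30.0 CPM in WT without overlap, and Ccl7, a monocyte chemokine, at 1.59 ± 0.707 CPM in cKO and 4.53 ± 3.21 CPM in WT, with WT 1 at 8.18 CPM. Among the 12 target genes with too few reads to test, picked out after their values were seen, Ccl20 and Csf2 had 0 reads in every library and Il6 had 4 reads in cKO 3 and 0 elsewhere.

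**Figure D5:**
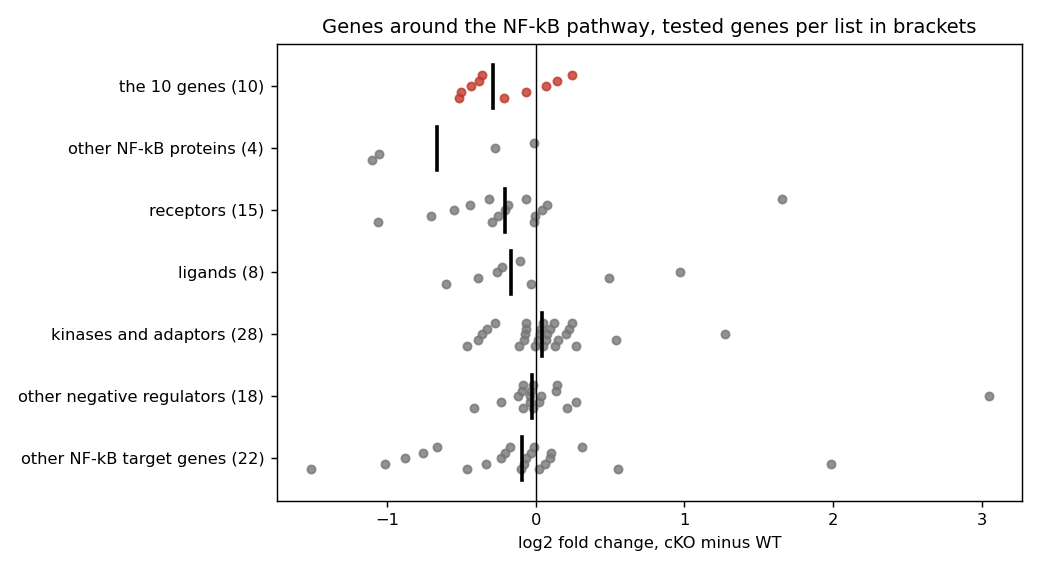
Log2 fold changes (cKO minus WT) of the tested genes in each list, 1 point per gene, with the median as a black bar and the number of tested genes in brackets; the vertical offset within a list only separates the points. The 10 genes (red) have a median of -0.29, the kinases and adaptors one of 0.042.

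Some markers of other cells also lay lower in cKO, as Icam1, Nfkbie, Rela and Bcl3 did. No gene of the marker lists passed the threshold by edgeR. DESeq2, which called 91 of the 16906 genes it tested, called Ptprc and Cd74 of the leukocyte list and Acan of the chondrocyte list lower. It also called genes of the erythroid list higher, Hemgn, Rhag and Klf1 among them. All 15 macrophage and leukocyte markers had log2 fold changes below 0 (median -0.34). Their summed level was 891 to 1168 CPM in cKO and 1171 to 1520 CPM in WT, with Cd74 at 173 CPM in cKO and 264 CPM in WT and Lyz2 at 243 CPM in cKO and 294 CPM in WT. Icam1 and Rel are also genes of such cells, and the part of the marker differences in the results was not tested. Of 12 endothelial markers, 10 were below 0, with sums of 70.2 to 145 CPM in cKO and 130 to 154 CPM in WT, and of 9 tested B and T cell markers 6 were below 0, with sums of 25.7 to 43.9 CPM in cKO and 37.2 to 38.4 CPM in WT. Fibroblast markers (9 of 10 below 0), osteoclast markers (7 of 8) and adipocyte markers (7 of 7) had medians of -0.25, -0.14 and -1.27. Chondrocyte markers (10 of 12), neutrophil markers (8 of 10), osteoblast and osteocyte markers (9 of 10) and erythroid markers (10 of 10) had log2 fold changes above 0, with medians of 0.21, 0.38, 0.26 and 0.51. The adipocyte marker Lep was at 0 reads in every library, and each marker of the other lists had reads in at least 1 library.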

How the data were processed

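The submitters' processing notes list HISAT2 2.2.1, featureCounts 2.0.1, FastQC 0.11.9, DESeq2 1.30.1 and R 4.0.5 with build GRCm38; the sources used here give no settings, annotation release or strand handling. The deposited counts are whole reads per Ensembl gene, not normalized. The other deposited table gives a normalized signal, namely these counts divided by 1 size factor per library: 100% of its values above 0 came out as whole reads within 0.001 of a read, 0 differed from the counts, and edgeR on them called 1 gene.

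Symbols and exon lengths were found for 55141 identifiers (GENCODE, GRCm38). Genes were filtered with filterByExpr (16260 left), TMM-normalised and tested with edgeR 4.0.16 (glmQLFit, glmQLFTest, R 4.3.3) on group alone, leaving 4 residual degrees of freedom. The threshold was 0.05 on p-values adjusted over all genes by the Benjamini-Hochberg method. SE is the size of the log2 fold change over the square root of F, and the 95% intervals use the test's t distribution. Libraries of a group differed (chi-square per degree of freedom 31.4 to 36.5), so none was counted as a duplicate. The code was tested on simulated data. Genes named beside the 10 are, per pathway list, the 2 with the smallest p and, per marker list, the most abundant. Markers called by DESeq2 and genes with few or 0 reads were named outside that rule, after their values were seen. The genes and lists were chosen with earlier results of these data known. Alternatives were RLE factors, library size alone, DESeq2 1.42.0, limma-voom and limma-trend (limma 3.58.1, log2 of the normalized signal plus 1), no filter, a filter of 1 CPM in 3 libraries, the replicate block and leaving out each library; edgeR on recovered reads was added after the data were seen. Sequences are RefSeq promoter windows.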

Additional observations from a re-analysis of the deposited data

How the results depend on the processing

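Each of the 10 genes was refitted under 15 other settings, and none passed the adjusted threshold in any of them. The direction held in 145 of 150 such values and turned in 5, all with 1 library left out: Rel ranged from -0.88 to 0.11, Nfkbia from -0.15 to 0.23 and Nfkbiz from -0.51 to 0.37 over those fits. The settings that kept all 6 libraries refitted the same reads, so their directions are not independent of the main fit. The setting with recovered reads had the same counts as the main fit, so its values could not turn. The median of the 10 ran from -0.36 without WT 3 to -0.17 without WT 2. Icam1 ranged from -0.51 to -0.29 and Nfkbie from -0.60 to -0.36 with single libraries left out. Over all genes, DESeq2 called 91 (44 higher and 47 lower) and edgeR without a filter 3, against 1; with single libraries left out edgeR called 1 to 2. The cause was not tested. With the replicate number as a block 1 gene passed, as without it. Libraries with the same number did not deviate together (correlations of -0.019, 0.071 and 0.023), so the numbers are not read as pairs. The fewest reads of any of the 10 genes in a library were 57, for Rel.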
